A study of Mus musculus with 12 samples.

Results

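The megakaryocyte and platelet genes described here are a list of 34: receptors, integrins, granule proteins, enzymes and signalling proteins of megakaryocytes and the platelets they shed. A gene was measured through the probe sets that the array annotation gives to its symbol alone, and where there were several, through the one with the highest mean signal over all arrays. This found 30 of the 34 genes, all of which passed the filter on low signals, among 12339 genes tested. Gp1ba, Serpine2, Ptgs1 and Bin2 were not analysed here.

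The study profiled whole spleens of BALB/c mice on 12 Affymetrix arrays, 1 mouse per array. Wild-type mice (wt) and Il1rn-deficient mice (ko) were each sampled at 1 month and, in other animals, at 4 months, with 3 mice in every group. The deleted gene makes the natural antagonist of the IL-1 receptor, and the study's title concerns genes of arthritis phases. The labels give no sex, litter or arthritis score. The p-values rest on the spread between mice within groups, pooled over all groups and moderated across probe sets, without regard to these traits.

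Megakaryocytes are large polyploid cells that release platelets, and in the mouse they reside in the splenic red pulp as well as in bone marrow. The spleen also holds a pool of circulating platelets, which carry RNA inherited from the megakaryocyte. Platelets adhere to damaged vessels through the glycoprotein Ib-IX-V complex, become activated through collagen, podoplanin, thrombin and ADP receptors, aggregate through integrin alphaIIb-beta3, and release stored granules. Several of the genes are also expressed elsewhere: Vwf and Selp in endothelium, F13a1 in monocytes and macrophages, Plek and Fermt3 in other leukocytes, and Clu in stromal cells. In whole-spleen RNA, more cells of a type and more RNA per cell cannot be told apart.

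All values are MAS5 signals scaled to a trimmed mean of 500. Differences are on the log2(signal + 32) scale, which understates the change of dim probe sets, and a probe set was called at a limma adjusted p under 0.05 over all 27041 tested. The label of the deleted gene was checked first: 1 of the 3 Il1rn probe sets lay between 5.64 and 40.8 in the 6 ko spleens and between 120 and 278 in the 6 wt spleens. It was called lower at both ages, whereas the other Il1rn probe sets were dimmer in ko without a call at either age alone. All 9 measured B cell and all 8 measured T cell markers reached a signal of 100 on every array. One array, wt at 4 months replicate 2, carried pancreas RNA, with a mean log2 level of 14.38 over the pancreas genes against 6.98 to 8.15 on the others. The arrays also fell into 2 sets by their highest deposited signal, above or below 45000, and the lower set holds all 3 ko arrays at 1 month but 1 array of each other group.

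Upstream sequences are shown for 5 of the genes that were higher in ko than in wt spleens at 4 months, because genes of this lineage are known to be driven by GATA1 with ETS factors such as FLI1. They are RefSeq promoters of GRCm38.p6, running 250 bases before to 50 bases after the annotated start, 5′ to 3′ on the gene's strand. Capitals mark the GATA words AGATAA and TGATAA and the ETS word GGAAG, searched on both strands. Gp5 lies at chr16:30310732-30311031 (minus strand), Clec1b at chr6:129397047-129397346 (plus), Pf4 at chr5:90772185-90772484 (plus), F2rl2 at chr13:95696670-95696969 (plus) and Itga2b at chr11:102469834-102470133 (minus).
Gp5: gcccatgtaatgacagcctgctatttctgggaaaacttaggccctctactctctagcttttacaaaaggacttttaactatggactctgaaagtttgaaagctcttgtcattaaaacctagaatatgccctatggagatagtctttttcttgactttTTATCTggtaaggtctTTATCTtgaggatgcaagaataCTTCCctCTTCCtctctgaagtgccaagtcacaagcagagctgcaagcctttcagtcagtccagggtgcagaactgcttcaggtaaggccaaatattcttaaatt
Clec1b: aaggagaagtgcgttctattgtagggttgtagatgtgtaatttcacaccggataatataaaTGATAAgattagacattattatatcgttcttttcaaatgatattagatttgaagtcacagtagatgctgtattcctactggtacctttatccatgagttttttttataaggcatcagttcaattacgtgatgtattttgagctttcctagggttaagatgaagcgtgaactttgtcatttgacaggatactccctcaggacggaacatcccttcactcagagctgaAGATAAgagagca
Pf4: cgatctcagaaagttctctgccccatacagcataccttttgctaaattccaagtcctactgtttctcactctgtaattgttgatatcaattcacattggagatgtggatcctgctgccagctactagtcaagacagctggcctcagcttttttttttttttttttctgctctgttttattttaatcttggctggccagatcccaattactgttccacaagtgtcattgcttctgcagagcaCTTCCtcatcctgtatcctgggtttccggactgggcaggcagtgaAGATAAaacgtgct
F2rl2: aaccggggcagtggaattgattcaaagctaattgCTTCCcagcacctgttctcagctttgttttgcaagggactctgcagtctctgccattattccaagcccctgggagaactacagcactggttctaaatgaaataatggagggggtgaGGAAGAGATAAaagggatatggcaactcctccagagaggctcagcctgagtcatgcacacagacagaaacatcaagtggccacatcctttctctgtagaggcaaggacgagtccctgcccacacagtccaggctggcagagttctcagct
Itga2b: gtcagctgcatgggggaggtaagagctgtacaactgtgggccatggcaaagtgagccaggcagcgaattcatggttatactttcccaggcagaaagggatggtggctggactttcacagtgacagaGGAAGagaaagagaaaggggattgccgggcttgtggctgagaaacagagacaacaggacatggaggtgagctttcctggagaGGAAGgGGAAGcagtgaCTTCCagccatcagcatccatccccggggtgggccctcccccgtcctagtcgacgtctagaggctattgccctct

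The Gp5 window holds a pair of GATA words, 93 and 77 bases before the start, and ETS words 55 and 48 bases before it. The Itga2b window holds 4 ETS words and no GATA word, and the Clec1b window holds GATA words and no ETS word. In F2rl2 an ETS word directly precedes a GATA word, without overlap. Promoters were matched for 22 of the 30 measured genes, giving 24 windows because F13a1 and Ltbp1 have 2 each. A GATA word was present in 6 of the 24 (25%) against 18.6% of all 32851 promoters, and an ETS word in 21 (87.5%) against 71.4%. Among the 13 windows of genes called at 4 months, a GATA word was in 5 and an ETS word in 12. The windows shown above are examples and hold GATA words more often than that. The NFE2 word TGAGTCA was in 1 of 24 (4.17%), in F2rl2, against 5.2% of all. These are letter matches in 1 window per start and describe no binding. Of the genes, Ppbp and Pf4 are neighbours on chromosome 5, and Cd9 and Vwf on chromosome 6.

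At 4 months, 17 of the 30 genes were higher in ko spleens and 0 were lower, where 1.78% of all probe sets tested were called higher and 0.518% lower. The 17 include P2ry1, which passed the filter on low signals through the ko arrays, where it is high. The list was chosen with earlier results of these data known. Each gene is read through its brightest probe set, whereas the shares cover all probe sets tested, dimmer ones included. Here and below, an excess over such shares is therefore not a test. The median log2 difference of the 30 was 0.88, against -0.01 over all probe sets, and 29 of 30 lay above 0 against 48.8% of all. The 3 ko spleens lay wholly above the 3 wt spleens for 23 genes, a pattern seen in 10.9% of all probe sets, and wholly below for Clu alone (11.4% of all). Of 20 other tested probe sets of these genes, 4 were called higher in ko at 4 months and 1 lower, so most were not called. The level of these genes moved with the array: wt replicate 3 had the lowest signal of all 12 arrays for 18 of the 30 genes, and ko replicate 1 had the highest for 17. Without wt replicate 3 the count fell to 9, without ko replicate 1 to 8 and without ko replicate 3 to 10, while 8 genes (Alox12, Clec1b, Gp1bb, Gp5, Rgs18, Thbs1, Tubb1 and Vwf) were called whichever array was left out. Within the upper array set, with 2 mice a group, 29 of 30 differences were above 0 with a median of 0.77, and within the lower set, with 1 mouse a group, 27 of 30 with a median of 1.07. The lower set compares ko replicate 2 with wt replicate 3, the array lowest for 18 genes, and the upper set includes ko replicate 1. The 2 sets therefore do not set aside these arrays.

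**Figure D1:**
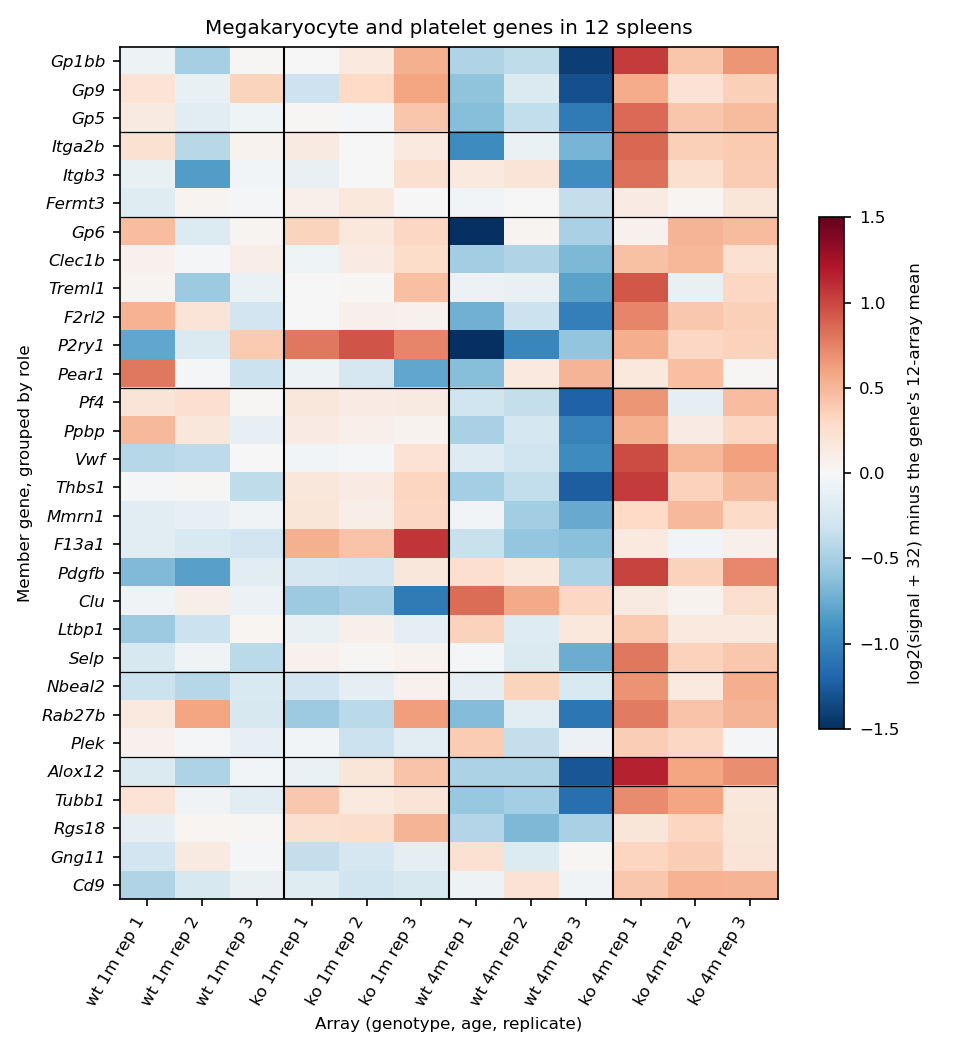
Each row is 1 of the 30 genes, grouped by role, and each column 1 of the 12 arrays; colour is log2(signal + 32) minus the gene's mean over the 12 arrays. The ko columns at 4 months are mostly red, above the mean for 30, 27 and 29 genes in replicates 1, 2 and 3, and the wt column at 4 months replicate 3 is above it for 4 genes.

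The glycoprotein Ib-IX-V complex, the receptor for von Willebrand factor, was represented by 3 measured subunits, and all 3 were higher in ko at 4 months. Gp5 read 720, 877 and 530 in the wt spleens and 2077, 1536 and 1603 in the ko spleens, a log2 difference of 1.27 (SE 0.19, limma adjusted p = 0.0020). The groups did not overlap and the lowest ko value was well above the highest wt value. At 1 month the same probe set read 1255, 1013 and 1091 in wt and 1158, 1121 and 1537 in ko, which overlapped (log2 difference 0.17, SE 0.19). Gp1bb, the beta chain that pairs with Gp1ba, read 926, 970 and 458 in wt and 2673, 1705 and 2033 in ko at 4 months (1.46, SE 0.25, limma adjusted p = 0.0060). Its 1-month values of 1208, 889 and 1291 in wt and 1263, 1413 and 1850 in ko overlapped. A second Gp1bb probe set, much dimmer, differed by 0.12 (limma adjusted p = 0.913) at 4 months, so the probe sets of this gene disagree. Gp9, the small subunit needed for surface expression of the complex, read 669, 885 and 394 in wt and 1540, 1208 and 1331 in ko at 4 months, with no overlap (1.09, SE 0.25, limma adjusted p = 0.0325). Gp9 lost its call on leaving out wt replicate 1 or 3 or any 1 of the ko arrays at 4 months, with an adjusted p of up to 0.138. At 1 month Gp9 overlapped between 958 and 1318 in wt and 828 and 1575 in ko.

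Of the integrin alphaIIb-beta3, the fibrinogen receptor, the alpha chain was higher in ko at 4 months and the beta chain did not pass the test. Itga2b read 816, 1498 and 975 in wt and 2929, 2064 and 2114 in ko at 4 months (1.12, SE 0.21, limma adjusted p = 0.0109). The wt spleens were spread, with replicate 2 highest, but all lay below the ko spleens. Leaving out wt replicate 1, wt replicate 3 or ko replicate 1 ended the call, with an adjusted p of up to 0.0656. At 1 month the values of 1884, 1199 and 1666 in wt and 1759, 1596 and 1778 in ko overlapped. Itgb3 read 839, 864 and 382 in wt and 1366, 898 and 993 in ko at 4 months (0.68, SE 0.27, limma adjusted p = 0.231), with ko replicate 2 close to the upper wt values. Fermt3, which encodes kindlin-3, the integrin activator of blood cells, read 7185, 7362 and 5794 in wt and 8084, 7560 and 8377 in ko (0.25, SE 0.13, limma adjusted p = 0.377).

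Among the 6 receptors measured, 3 were called higher at 4 months. Clec1b, the podoplanin receptor CLEC-2, read 1681, 1780 and 1521 in wt and 3316, 3465 and 2866 in ko (0.94, SE 0.13, limma adjusted p = 0.00157). The spread within each group was small beside the gap between them. Its 1-month values were 2551, 2386 and 2622 in wt and 2326, 2649 and 2953 in ko, which overlapped. F2rl2, the thrombin receptor PAR3, read 218, 298 and 170 in wt and 651, 511 and 495 in ko (1.18, SE 0.22, limma adjusted p = 0.00981), and at 1 month 558, 438 and 305 in wt and 382, 402 and 396 in ko. Leaving out wt replicate 3 or ko replicate 1 ended the 4-month call, with an adjusted p of up to 0.0565. P2ry1, an ADP receptor, was dim in wt, with 13.1, 32.6 and 52.3, against 153, 126 and 130 in ko (1.42, SE 0.32, limma adjusted p = 0.0291). P2ry1 also did not overlap at 1 month, with 42.5, 78.0 and 136 in wt and 188, 212 and 179 in ko, without a call (1.02, SE 0.32, limma adjusted p = 0.16). Its 4-month call was lost without wt replicate 1, any 1 of the ko arrays, or ko replicate 2 at 1 month (limma adjusted p up to 0.119). The call was also lost without the filter on low signals. In wt P2ry1 reached the filter's signal of 100 only on the array at 136, so it entered the test through the ko arrays, where it is high. Gp6, the collagen receptor glycoprotein VI, read 49.1, 237 and 156 in wt and 242, 342 and 333 in ko (1.06, SE 0.33, limma adjusted p = 0.11), where wt replicate 1 stood far below the others. Treml1 (0.71) and Pear1 (0.21) were not called, with overlapping groups in both.

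Of the 10 granule proteins measured, 6 were higher in ko at 4 months. The granule chemokines Pf4 (platelet factor 4) and Ppbp, the precursor of neutrophil-activating peptide 2, were among them. Ppbp read 9110, 10682 and 6373 in wt and 18577, 13971 and 15846 in ko (0.91, SE 0.19, limma adjusted p = 0.0178), and at 1 month 17910, 14456 and 11720 in wt and 13929, 13495 and 13264 in ko. Pf4 read 6482, 6226 and 3444 in wt and 12667, 7296 and 11086 in ko at 4 months (0.96, SE 0.22, limma adjusted p = 0.0304). Wt replicate 3 was lowest for both chemokines, and leaving out wt replicate 3, ko replicate 1 or ko replicate 3 ended either call, with adjusted p of up to 0.0938 for Ppbp and 0.155 for Pf4. At 1 month Pf4 overlapped, with 9141, 9508 and 8089 in wt and 9024, 8690 and 8807 in ko.

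The adhesive granule proteins Thbs1, Vwf and Mmrn1 and the adhesion receptor Selp were the others. Thbs1, thrombospondin-1, read 946, 1045 and 560 in wt and 2860, 1735 and 1913 in ko at 4 months (1.33, SE 0.22, limma adjusted p = 0.00438). Vwf, the ligand of the glycoprotein Ib complex, read 756, 699 and 438 in wt and 1744, 1237 and 1345 in ko (1.17, SE 0.20, limma adjusted p = 0.00584). Neither gene's groups overlapped at 4 months. At 1 month Thbs1 read 1350, 1375 and 1040 in wt and 1532, 1490 and 1704 in ko, again without overlap but without a call. Vwf read 639, 656 and 865 in wt and 844, 858 and 1013 in ko at 1 month, which overlapped. Mmrn1, multimerin-1, which binds factor V in platelet granules, read 463, 322 and 269 in wt and 596, 683 and 590 in ko (0.80, SE 0.18, limma adjusted p = 0.0267). Selp, P-selectin, which granule release brings to the platelet surface, read 346, 297 and 196 in wt and 631, 456 and 474 in ko (0.84, SE 0.20, limma adjusted p = 0.038). Mmrn1 and Selp both kept a gap between the groups. Their ko spleens also lay wholly above their wt spleens at 1 month, without a call. The Mmrn1 call was lost without wt replicate 2 or 3 or any 1 ko array at 4 months (limma adjusted p up to 0.118). The Selp call at 4 months was lost without wt replicate 3 of that age or any 1 of the 6 ko arrays (limma adjusted p up to 0.184). Vwf and Selp are also endothelial. Of the endothelial marker list, 0 of 17 measured genes were called at 4 months, and its median difference was 0.15. Its mean log2 level per array was 9.71 to 9.75 in wt and 9.79 to 9.94 in ko, so every ko array lay above every wt array. The part of endothelial cells in the Vwf and Selp differences was not tested.

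Of the other granule genes, F13a1, the clot-stabilising factor XIII A chain, was the only one of the 30 genes called at 1 month, where 0.203% of all probe sets tested were called higher. It read 706, 672 and 645 in wt and 1165, 1075 and 1704 in ko at 1 month (0.90, SE 0.17, limma adjusted p = 0.0247), with every ko spleen above every wt spleen. The 4-month signals were 621, 520 and 504 in wt and 879, 772 and 840 in ko, again without overlap but without a call (0.58, SE 0.17, limma adjusted p = 0.0939). The 1-month call was lost on leaving out any of 5 single arrays (wt replicate 1 or 2 or ko replicate 1 or 3 at 1 month, or ko replicate 3 at 4 months), with an adjusted p of up to 0.176, and with a block for array set (adjusted p = 0.0602 by limma). Of 16 monocyte and macrophage genes, 0 were called higher and 1 lower at 1 month, with a median of -0.23. The part of these cells in the F13a1 difference was not tested. Clu, clusterin, was dimmer in ko at each age, with 10918, 12052 and 10694 in wt and 7755, 8058 and 5407 in ko at 1 month, and 20247, 16880 and 14120 in wt and 12497, 11802 and 13412 in ko at 4 months. The ko and wt spleens did not overlap at either age, without a call in this probe set (-0.68, limma adjusted p = 0.0808, and -0.43, limma adjusted p = 0.208), although another Clu probe set was called lower at 4 months (-0.54, limma adjusted p = 0.0413). Pdgfb, a platelet growth factor chain, read 666, 624 and 390 in wt and 1148, 710 and 938 in ko at 4 months (0.71, SE 0.23, limma adjusted p = 0.134), and Ltbp1 differed by 0.12.

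Granule formation and release was represented by 3 genes, 1 of which was higher in ko at 4 months. Rab27b, a small GTPase of granule secretion, read 306, 441 and 218 in wt and 880, 684 and 723 in ko at 4 months (1.21, SE 0.29, limma adjusted p = 0.0413). The 1-month values were widely spread, with 555, 771 and 416 in wt and 332, 369 and 791 in ko. Its call was lost without wt replicate 1 or 3, any 1 ko array at 4 months, or ko replicate 2 at 1 month (adjusted p up to 0.17), but a further 2 of its probe sets were called too (1.09, limma adjusted p = 0.0188, and 0.97, limma adjusted p = 0.0124). Nbeal2, needed to form alpha granules, read 303, 434 and 283 in wt and 557, 377 and 505 in ko (0.46, SE 0.20, limma adjusted p = 0.261), with overlap. Plek, pleckstrin, the main protein kinase C substrate of platelets, read 5865, 3509 and 4242 in wt and 5825, 5610 and 4436 in ko (0.24, SE 0.17).

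Alox12, the platelet 12-lipoxygenase, which makes 12-hydroxyeicosanoids from arachidonate, was higher in ko at 4 months. It read 796, 797 and 443 in wt and 2538, 1713 and 1846 in ko (1.56, SE 0.22, limma adjusted p = 0.00147). At 1 month it read 962, 804 and 1092 in wt and 1047, 1277 and 1526 in ko, and the groups overlapped. A second Alox12 probe set differed by 0.92 at 4 months without a call (limma adjusted p = 0.108).

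In the cytoskeleton and signalling group, 2 of 4 genes were higher in ko at 4 months. Tubb1, the beta-1 tubulin of the platelet marginal band, read 1414, 1478 and 952 in wt and 3488, 3212 and 2377 in ko at 4 months (1.23, SE 0.18, limma adjusted p = 0.0020), and at 1 month 2437, 2034 and 1901 in wt and 2811, 2345 and 2425 in ko. Rgs18, a regulator of G protein signalling enriched in platelets, read 1312, 1113 and 1270 in wt and 2037, 2245 and 2035 in ko (0.76, SE 0.13, limma adjusted p = 0.00657). Both had non-overlapping groups at 4 months, and Rgs18 also at 1 month, with 1631, 1826 and 1818 in wt and 2125, 2158 and 2577 in ko (limma adjusted p = 0.202). Cd9, a tetraspanin, read 3134, 3862 and 3179 in wt and 4388, 4756 and 4726 in ko at 4 months (0.45, SE 0.13, limma adjusted p = 0.0941), and Gng11, a G protein gamma subunit, 3293, 2438 and 2833 in wt and 3512, 3628 and 3207 in ko (0.28, SE 0.15, limma adjusted p = 0.378).

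**Figure D2:**
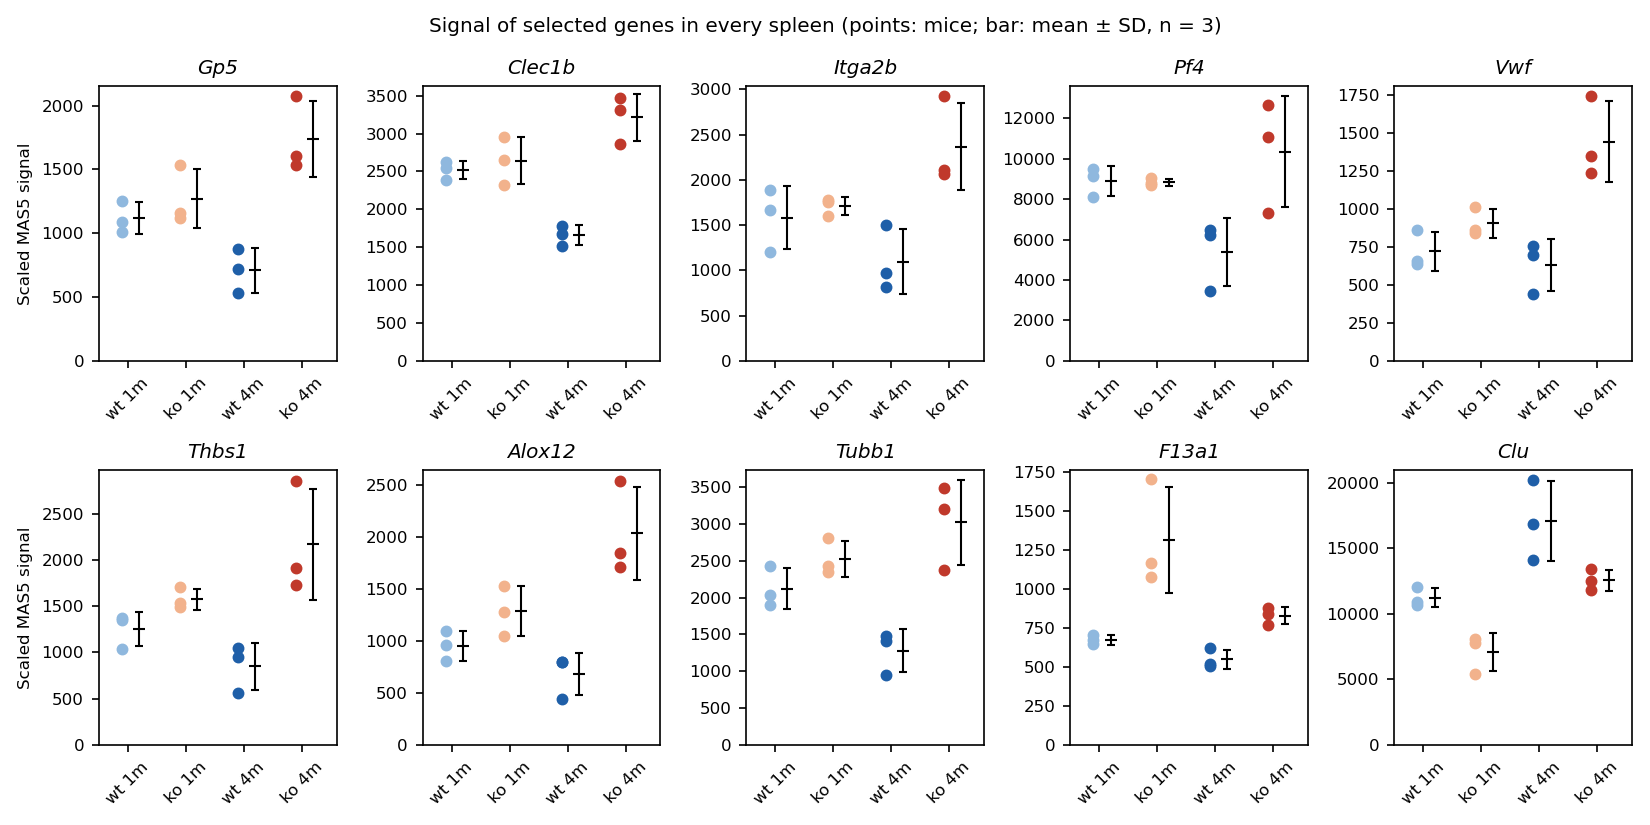
Scaled signal of 10 of the genes in each of the 12 spleens, by group; points are mice and the bar is the mean ± SD of 3. For Gp5 the ko spleens at 4 months sit between 1536 and 2077, above the wt spleens at 530 to 877, and for Clu the ko spleens sit below the wt spleens at both ages.

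At 1 month the other 29 genes were not called higher or lower (0.24% of all probe sets were called lower). The median difference was 0.19 against -0.04 over all probe sets, 22 of 30 lay above 0 against 45.6% of all, and 6 genes had ko wholly above wt, where 7.99% of all did, and Clu had ko wholly below wt (11.9% of all). Without wt replicate 3 there were 3 calls, with P2ry1 higher and Clu lower beside F13a1. P2ry1 passed the filter through the ko arrays, as given above. All 3 ko arrays at 1 month belong to the lower array set and 2 of the 3 wt arrays to the upper one, so within-set values at this age rest on 1 wt array.

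Averaged over both ages, 13 genes were higher and 1, Clu, lower, against 2.83% and 2.56% of all probe sets, and 28 of 30 differences lay above 0 against 46.7% of all. Of these calls, Itga2b, Mmrn1 and Selp were each lost on leaving out some single array. Whether the ko-wt difference changed from 1 month to 4 months was tested as an interaction, which limma called for 0 of the 30 genes, against 0.0481% of all probe sets, although 15 had an unadjusted p under 0.05 (8.65% of all). Its median was 0.64, against 0.03 over all, and 28 of 30 values lay above 0 against 53.4% of all. A larger effect at 4 months than at 1 month was therefore not called for any single gene.

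**Figure D3:**
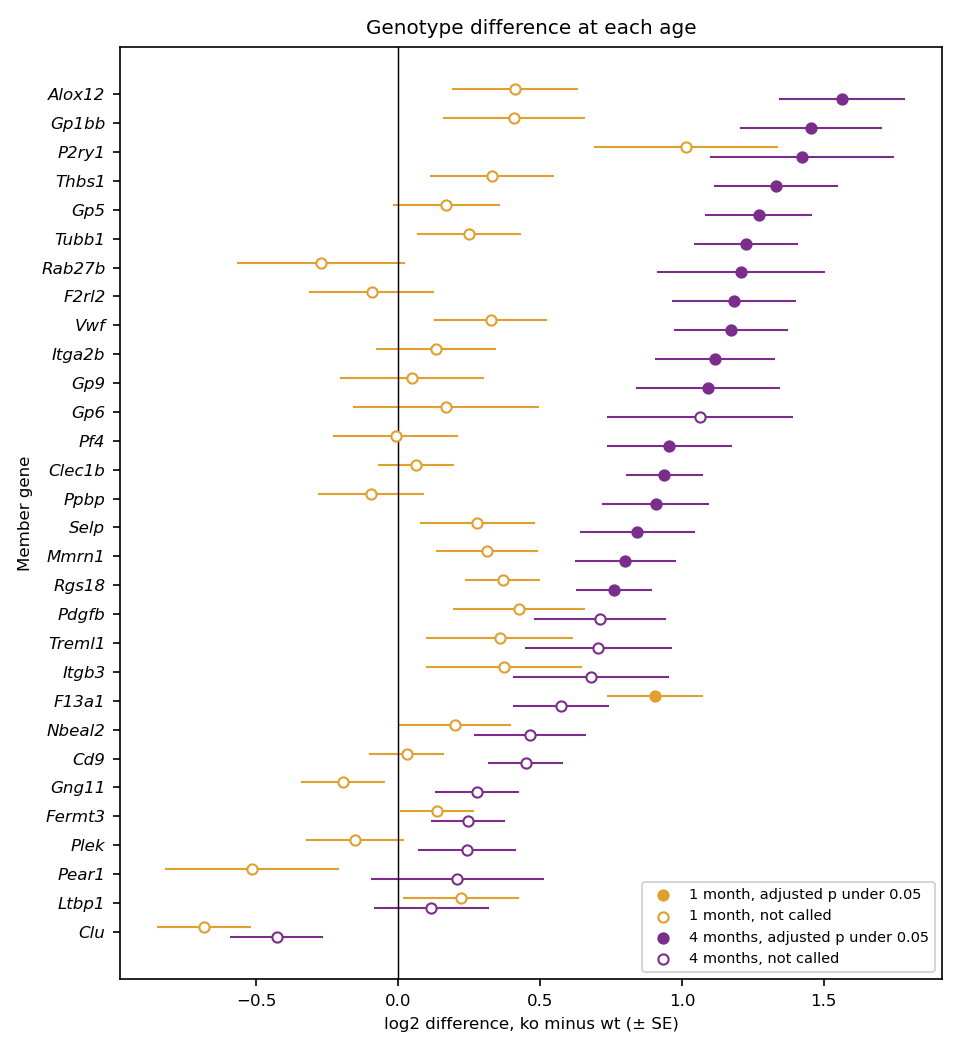
Log2 difference of ko minus wt with its SE for each of the 30 genes, at 1 month and at 4 months; filled points have a limma adjusted p under 0.05. At 4 months 17 points are filled and all of them are above 0, and at 1 month only F13a1 is filled.

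In wt spleens, 8 genes were lower at 4 months than at 1 month (Gp9, Gp5, Clec1b, F2rl2, Pf4, Ppbp, Tubb1 and Rgs18) and 1, Clu, was higher, where 9.67% of all probe sets were called lower and 11.8% higher. The largest of these were Gp9 (-0.86, SE 0.25, limma adjusted p = 0.0244) and F2rl2 (-0.83, SE 0.22, limma adjusted p = 0.0139), and the smallest p was that of Clec1b (-0.59, SE 0.13, limma adjusted p = 0.00541). The median over the 30 was -0.42 against 0.09 over all probe sets, 8 of 30 lay above 0 against 57.6% of all, and 10 had the 4-month spleens wholly below (13.2% of all). Clec1b was the only call kept whichever array was left out. These values share the 3 wt arrays at 4 months, with wt replicate 3 among them, with the genotype comparison. Without wt at 1 month replicate 1 the 9 calls became 3. Centring arrays on their median moved the median of all probe sets in this comparison from 0.09 to -0.03. With it the calls rose from 9 to 12, as Itga2b, P2ry1, Rab27b and Thbs1 were called lower and the Clu call ended.

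In ko spleens, 7 genes were higher at 4 months than at 1 month (Vwf, Pdgfb, Clu, Nbeal2, Alox12, Gng11 and Cd9) and 1, F13a1, was lower, where 13.6% of all probe sets were called higher and 9.25% lower. Cd9 (0.72, SE 0.13, limma adjusted p = 0.00129) and Clu (0.85, SE 0.16, limma adjusted p = 0.00186) had the smallest p, and F13a1 fell by 0.62 (SE 0.17, limma adjusted p = 0.0154). The median over the 30 was 0.43 against 0.10 over all probe sets, 27 of 30 lay above 0 against 58.2% of all, and 16 had the 4-month spleens wholly above (28.3% of all). None of the 3 measured glycoprotein Ib-IX-V subunits was called. Genes of other cells also rose with age in ko. Of 17 endothelial genes 12 were called higher and 0 lower (median 0.73), and of 16 monocyte and macrophage genes 14 and 0 (median 1.14). Of 14 stromal genes 5 were called higher and 1 lower (median 0.36). The part of these cells in the 7 rises was not tested. Clu and Cd9 kept their calls whichever array was left out. Median centring moved the median of all probe sets to -0.06 and left 4 genes called, and leaving out ko at 1 month replicate 1 or ko at 4 months replicate 1 left 3, and ko at 1 month replicate 2 or ko at 4 months replicate 3 left 4. The difference between the age effects of wt and ko is the interaction given above.

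**Figure D4:**
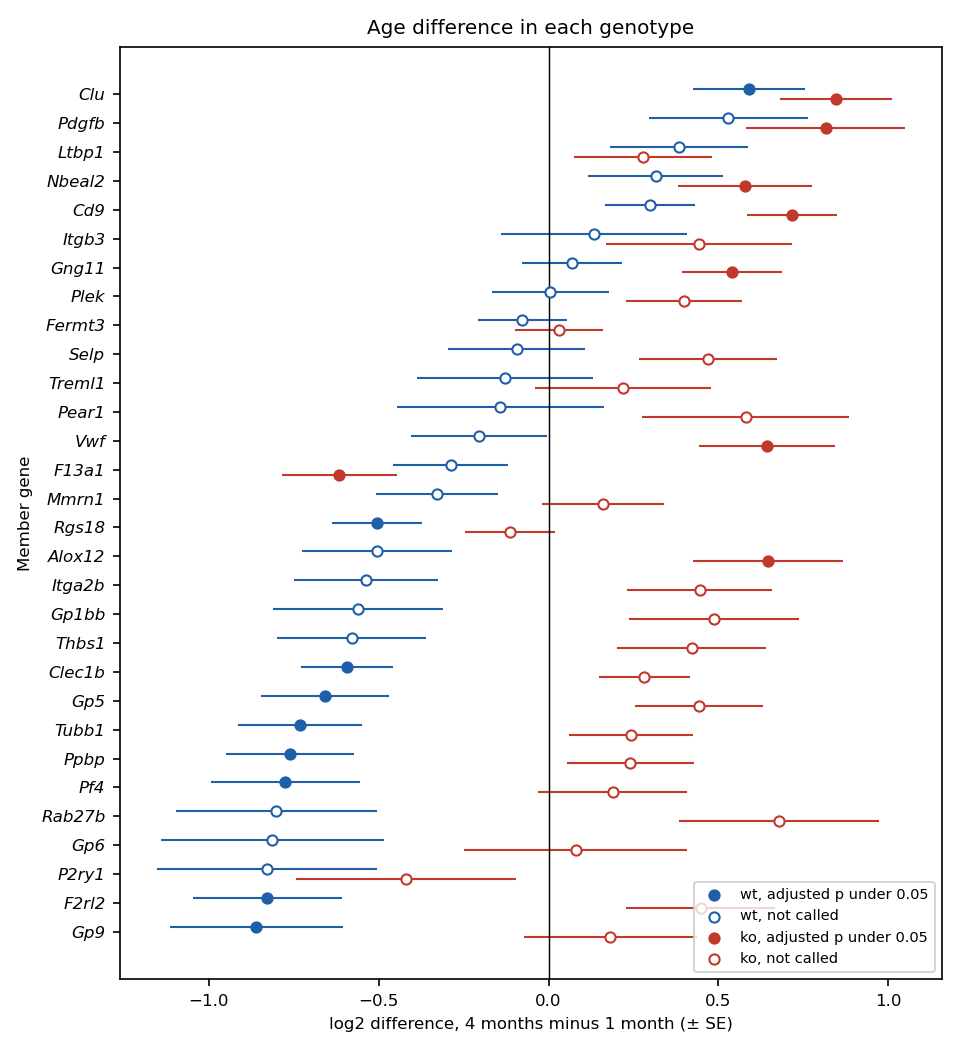
Log2 difference of 4 months minus 1 month with its SE for each of the 30 genes, in wt and in ko; filled points have a limma adjusted p under 0.05. In wt 8 filled points lie below 0 and in ko 7 lie above it.

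The transcription factors that drive the lineage were examined next, from 14 measured genes of 16 listed. At 4 months 4 were higher in ko and 0 lower, with a median of 0.48: Tal1 (1.25, limma adjusted p = 0.000558), Nfe2 (1.22, limma adjusted p = 0.00411), Zfpm1, the GATA1 cofactor FOG1 (1.30, limma adjusted p = 0.0134) and Gata1 (1.17, limma adjusted p = 0.0147). Gata1 read 651, 1124 and 544 in wt and 1784, 1427 and 1942 in ko, and Nfe2 1503, 2386 and 1171 in wt and 3819, 3702 and 3926 in ko. The groups did not overlap for either gene. Fli1 differed by 0.01 and Runx1 by -0.14, without a call. In wt spleens Gata1 was lower at 4 months than at 1 month (-1.66, limma adjusted p = 0.000126), as was Nfe2 (-2.03, limma adjusted p = 5.29e-06). Both were also lower with age in ko, Gata1 by a log2 difference of -0.67 (limma adjusted p = 0.050) and Nfe2 by -1.02 (limma adjusted p = 0.00191). In each genotype 3 of the 14 factors were higher and 6 lower at 4 months than at 1 month. All 4 called factors also act in red cell precursors. Of 22 other platelet receptors and signalling genes 1 was higher in ko at 4 months, Tbxas1, thromboxane synthase (0.87, limma adjusted p = 0.0411), with a list median of 0.12. Of 23 genes of platelet structure and granule machinery 1 was higher, F5, coagulation factor V (1.07, limma adjusted p = 0.014), with a median of 0.27.

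Markers of other cell types were measured on the same arrays. Of 20 measured erythroid genes, 14 were higher in ko at 4 months with a median of 0.97, and all 20 were lower at 4 months than at 1 month in wt (median -1.68) and 13 in ko (median -0.71). The mean log2 level of the erythroid genes was 11.30, 11.89 and 11.13 in the 4-month wt spleens and 12.35, 12.34 and 12.43 in the ko spleens, against 9.88, 10.00 and 9.56 and 10.80, 10.52 and 10.57 for the 30 megakaryocyte and platelet genes. Wt replicate 3 was lowest in both lists. Of 13 neutrophil genes, 12 were higher in ko at 4 months (median 2.80) and 12 at 1 month (median 1.90), an age at which 1 of the 30 was called. Endothelial (0 of 17), stromal (0 of 14), mast cell and basophil (0 of 8), stem and progenitor (0 of 10) and T cell (0 of 8) genes had no calls at 4 months, and 1 of 16 monocyte and macrophage genes was higher and 1 of 9 B cell genes lower. The 4 tested pancreas genes were not called (median -2.46), and without wt at 4 months replicate 2, the array that carries them, 18 of the 30 genes were called. The part of these other cells in the results was not tested.

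**Figure D5:**
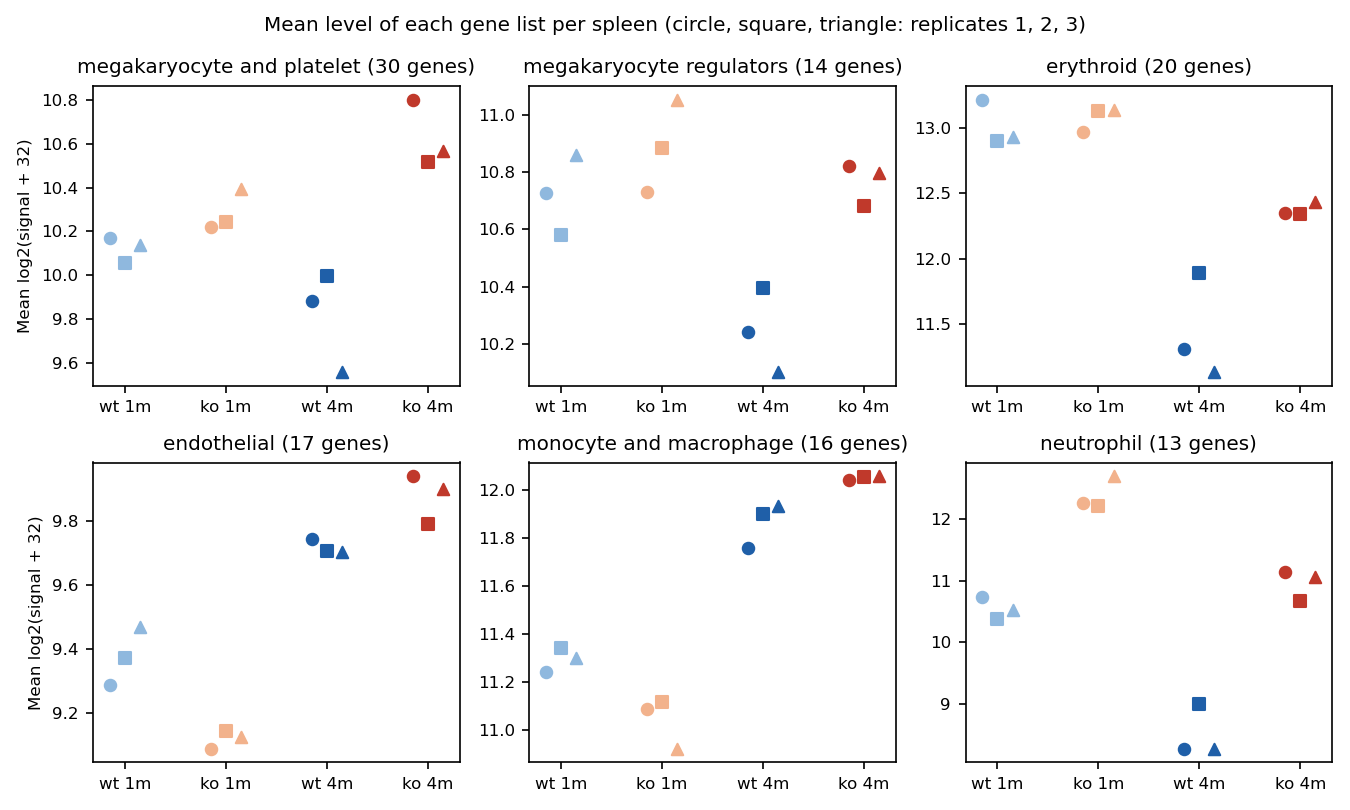
Mean log2(signal + 32) per spleen of 6 gene lists, by group; circle, square and triangle are replicates 1, 2 and 3. The megakaryocyte and platelet mean runs from 9.56 to 10.00 in wt and 10.52 to 10.80 in ko at 4 months, and the erythroid mean from 11.13 to 11.89 and 12.34 to 12.43.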

How the data were processed

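RNA extracted with Trizol from 12 spleens was hybridised by the standard Affymetrix protocol, per the labels' protocols. The authors deposited linear signal intensities, 1 for each probe set, made with MAS5, per the submitters' processing notes; its version, and the array annotation's genome build, are not given in the sources used here. Arrays were scaled to a 2% trimmed mean of 500, 32 was added, and log2 was taken. Of 45037 probe sets without 64 controls, 27041 with a signal of at least 100 in at least 3 arrays were tested with limma 3.58.1 in R 4.3.3 (lmFit, eBayes with trend, 4 group means, 8 residual and 8.27 prior degrees of freedom, 2-sided, Benjamini-Hochberg). The number of arrays limits the precision. The members and lists were chosen with earlier results of these data known. Values of the 4-month arrays are given for up to 4 members per role with the smallest p at 4 months in ko against wt. The same holds for members called in another comparison. Values of the 1-month arrays are given for only some of these members. Of other lists, up to 4 called genes were named, and beside them Fli1 and Runx1, which were not called. Fits were tested on simulated data. Detection calls were not used here.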

Additional observations from a re-analysis of the deposited data

How the results depend on the processing

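The counts of called genes among the 30 were recomputed under 32 alternatives: other scalings, offsets, filters, variance models, thresholds, blocks, array sets, probe set rules and each array left out. No called difference changed sign. At 4 months (17 called) the count was 10 with eBayes without a trend, 11 with a limit of 2-fold, 9 in the low array set and 6 in the high array set, and 8 to 18 with 1 array left out; 5 genes (Alox12, Gp5, Thbs1, Tubb1 and Vwf) kept their call in every alternative outside the array sets. At 1 month (1 called) it was 0 without a trend, with array weights, a 2-fold limit, the array set block, both blocks, the low array set or only the groups compared, 2 at an adjusted p under 0.10 or with the mean of a gene's probe sets, and 0 to 3 with 1 array left out. Over both ages (14) it was 1 with a 2-fold limit, 3 in the low array set, and 11 to 19 with 1 array left out. The difference between ages gave 0 throughout. For age in wt (9) it was 14 at an adjusted p under 0.10, 0 with a 2-fold limit, 5 in the high array set, and 3 to 12 with 1 array left out. For age in ko (8) it was 4 with median centring, 5 without a trend, 16 with array weights, 0 with a 2-fold limit, 4 with the array set block, 3 with both blocks, 1 in the low array set, 14 with only the groups compared, and 3 to 8 with 1 array left out. Same-numbered arrays mostly did not deviate together (r from -0.20 to 0.21 over 18 pairs, 4 above 0.1), and 1 of 12 arrays correlated best with its own number. No pairing of mice by number was seen, although so few arrays a group cannot exclude it. With the replicate block 16 genes were called at 4 months.

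The low array set holds 1 array of every group but ko at 1 month, so its fit takes the spread from the 3 ko arrays at 1 month, lone arrays are assumed to vary like them, and its counts say nothing of stability. The high array set holds no ko array at 1 month, so it gave values for 2 comparisons only. An uncalled gene is not shown to be unchanged.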
